A study of Mus musculus with 6 samples.

Results

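The genes described here are 10 genes that the ERK pathway switches on and that mostly act back on it: the phosphatases Dusp4, Dusp5 and Dusp6, the Sprouty genes Spry1, Spry2 and Spry4, the Sprouty-related genes Spred1 and Spred2, and the transcription factors Etv4 and Etv5. They were chosen by name, with earlier results of these data known. All 10 were among the 12803 genes of the table and among the 12616 tested. The libraries came from cultured mouse podocyte cells, the epithelial cells that cover the capillaries of the kidney filter: 3 of a podocyte-derived line whose genotype is labelled Myosin 1e KO (the KO line) and 3 of the Murine Podocyte Cell (Mundel) line, labelled WT (the WT line). The labels give no treatment, time or further allele for either line. A heterozygous genotype that the design text also names was not analysed here. Each genotype was 1 cell line, so the genotype and any other difference between the lines cannot be told apart, and the way in which the KO line was derived is not given in the sources used here. Nothing in the labels says that the 3 libraries of a line came from separate cultures, so a p-value here reflects only how far these samples spread, which may be technical.

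ERK is the last kinase of the RAS-RAF-MEK-ERK cascade, which carries signals from growth factor receptors to the nucleus. Active ERK raises the transcription of its own inhibitors. DUSP proteins remove the phosphates that activate ERK, and Sprouty and SPRED proteins damp the steps between the receptor and RAF. Etv4 and Etv5 encode ETS factors of the PEA3 group, which carry part of the transcriptional output of ERK. Because these genes follow ERK activity in many cell types, their mRNAs are often read together as a gauge of the pathway, although mRNA levels do not measure the phosphorylation of ERK.

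The table gave log2 counts-per-million (CPM), from which whole reads were worked back. The levels below are CPM of those reads, as mean ± SD of 3 libraries. Reads summed over the listed genes numbered 35447096 to 41360689 in the KO libraries and 35763961 to 42106461 in the WT libraries. In these libraries 3 reads equal 0.0703 to 0.0856 CPM. Myo1e, the gene named in the genotype, was at 17.3 ± 1.4 CPM in KO cells and 177 ± 8.4 CPM in WT cells. Of 10 podocyte markers 6 were listed, and they summed to 755 to 1009 CPM in KO libraries and 1531 to 1716 CPM in WT libraries. Synpo, Kirrel and Wt1 were lower in every KO library than in any WT library, and Podxl (106 against 50.4 CPM) and Cd2ap (390 against 275 CPM) were higher in every one. Nphs1, which encodes nephrin, a slit-diaphragm protein that defines a mature podocyte, had no row in the table used here, and neither had Ptpro or Tcf21. Of 11 markers of tubular and collecting duct epithelium 8 were listed, with sums of 5874 to 6234 CPM in KO and 1139 to 1637 CPM in WT libraries, and Cldn7 had 0 reads in the WT libraries. Cdh1, Epcam, Krt8, Krt18, Cldn4 and Cldn7 were higher in every KO library, while Lrp2 (14.0 CPM in KO cells and 331 CPM in WT cells) and Cdh16 (92.5 against 975 CPM) were lower in every one and made up nearly all of the WT sum. Of 10 mesangial and fibroblast markers 6 were listed. Their sums were 11.5 to 17.8 CPM in KO and 3659 to 3860 CPM in WT libraries. Vim (2168 CPM in WT cells) and Tagln (1157 CPM in WT cells) made up most of the WT sum. Vim, Tagln, Cdh11, Pdgfrb and Col1a1 were lower in every KO library than in any WT library, and Dcn was higher in every one. None of 7 endothelial markers and 2 of 7 leukocyte markers were listed, and Cd68 and Csf1r together had sums of 56.2 to 75.5 CPM in KO and 37.1 to 56.9 CPM in WT libraries. The podocyte, tubular and mesangial sums did not overlap between the lines, the leukocyte sums did, and the part of these markers in the results below was not tested. Over all genes tested, log2 CPM correlated at 0.988 to 0.994 between libraries of a line and at 0.686 to 0.703 between the lines. In RNA from whole cultures, fewer cells expressing a gene and less RNA of it per cell cannot be told apart.

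Of the 10 genes, 5 were higher in the KO line (Spry4, Dusp4, Etv4, Spry2 and Etv5) and Spred1 was lower. Dusp5, Dusp6, Spry1 and Spred2 did not pass the test. A gene passed at an adjusted p under 0.05 (limma, Benjamini-Hochberg over all genes tested), and 68.1% of all genes tested passed: 34.3% of all genes tested were higher and 33.8% were lower in the KO line. The 6 of 10 called here are therefore near the share of all genes, while the 5 higher against 1 lower is a description of a short list, for which no test was made. A change of at least 2-fold was called in 5 of the 10 (Dusp4, Spry2, Spry4 and Etv4 higher, Spred1 lower), against 27.9% of all genes. The median log2 fold change was 0.44 over the 10 genes and 0.01 over all genes tested. For each of the 6 genes that passed, the groups of 3 libraries did not overlap, as in 73.5% of all genes tested (KO libraries above in 37.2% and below in 36.4%). An exact two-sided permutation test gave p = 0.1 for each of these 6, the smallest value that 3 libraries against 3 allow. Groups that do not overlap always give this value, so it adds nothing to the lack of overlap. For Dusp5, Dusp6, Spry1 and Spred2 the permutation test gave p = 0.2 to 0.6.

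**Figure D1:**
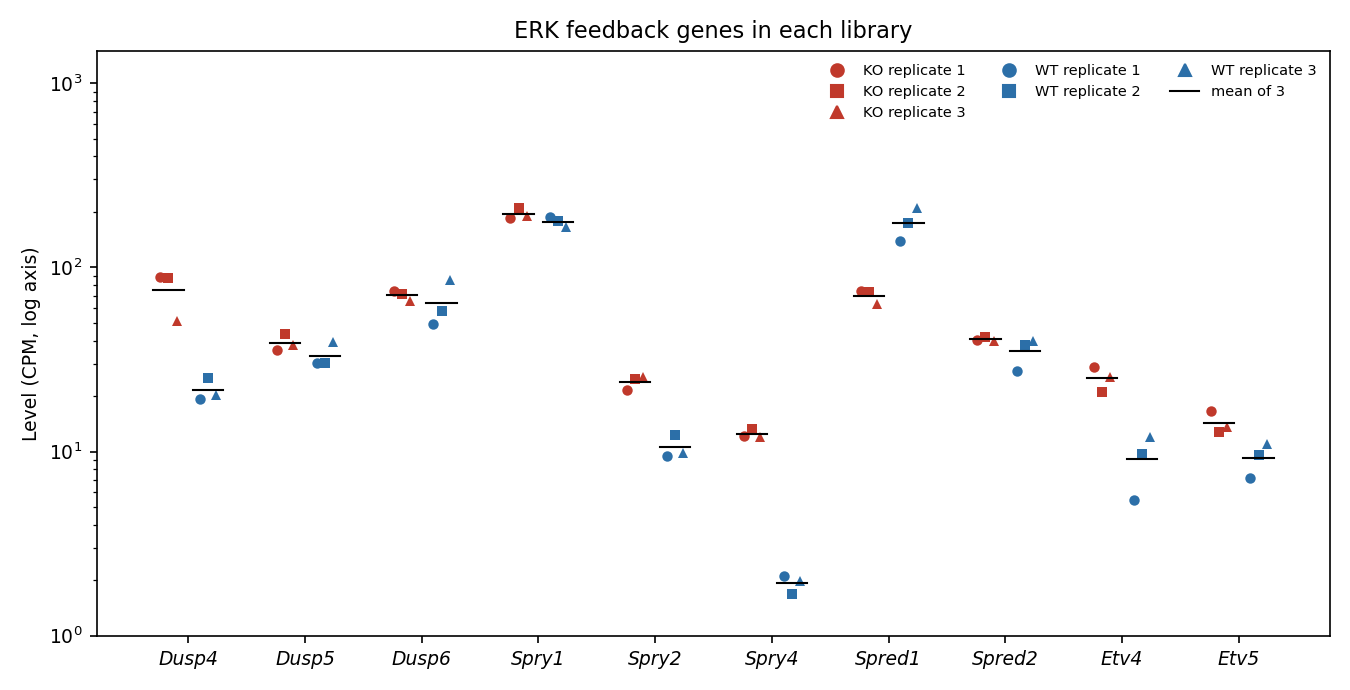
Level of each of the 10 genes in CPM (log axis) in the 3 KO libraries (red, left of each pair) and the 3 WT libraries (blue, right), with a bar at each mean. The red and blue points are apart for Dusp4, Spry2, Spry4, Spred1, Etv4 and Etv5 and interleave for Dusp5, Dusp6, Spry1 and Spred2.

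**Figure D2:**
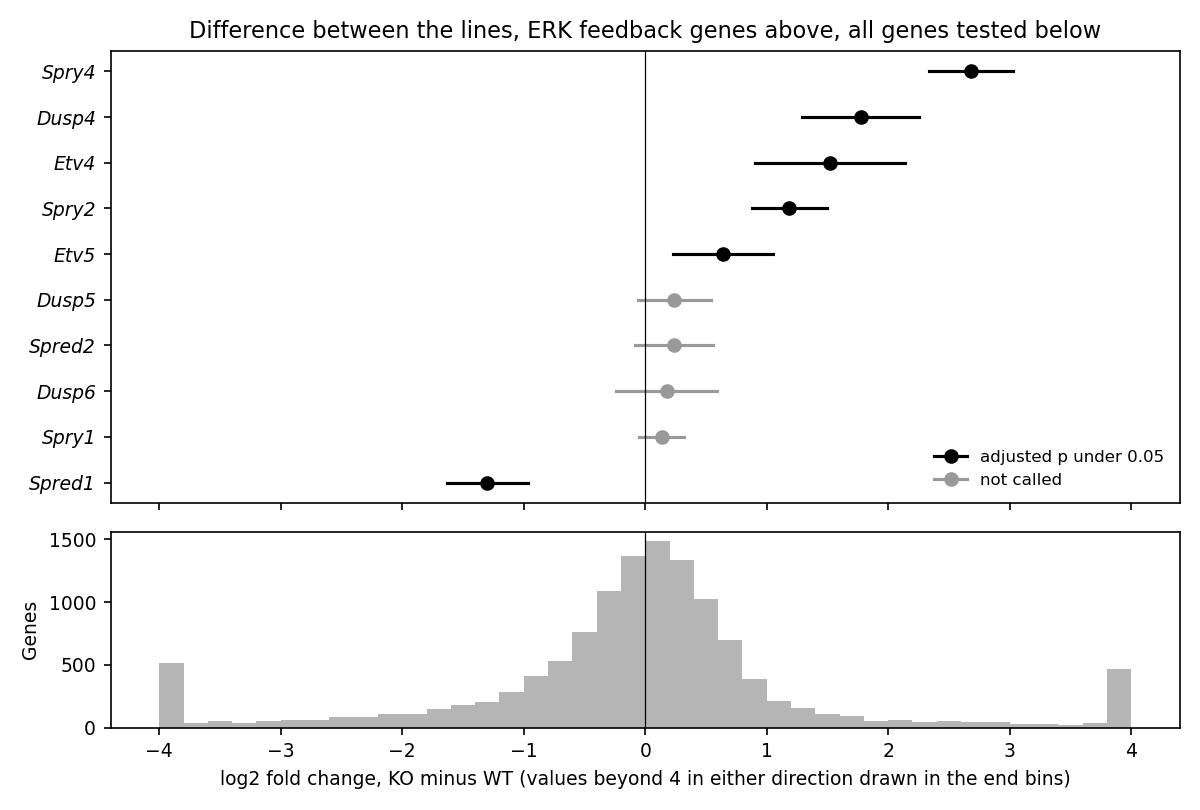
Upper panel: log2 fold change, KO minus WT, of each gene with its 95% confidence interval from limma, in black where the adjusted p was under 0.05. Lower panel: the same fold change for all 12616 genes tested, with a median of 0.01.

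The phosphatases differed among themselves. Dusp4 encodes a nuclear phosphatase that acts on ERK and other MAP kinases, and it lies on mouse chromosome 8 from 34807297 to 34819894 (plus strand, GRCm38, 4 exons after merging transcripts). Dusp4 was at 88.8, 87.3 and 51.1 CPM in KO libraries 1 to 3 and at 19.4, 25.0 and 20.4 CPM in WT libraries 1 to 3. KO replicate 3 was the lowest of its line and still above every WT library. The log2 fold change of Dusp4 was 1.77 (SE 0.21, limma adjusted p = 0.000105), a 3.42-fold difference. Dusp5 encodes a nuclear phosphatase selective for ERK. Dusp5 was at 35.7, 43.7 and 37.8 CPM in KO libraries and at 30.2, 30.1 and 39.2 CPM in WT libraries, so that WT replicate 3 lay within the KO range. Its log2 fold change was 0.24 with a 95% interval of -0.06 to 0.54 (limma adjusted p = 0.131). An antisense gene of GENCODE M21 overlaps Dusp5, and since the strand setting of the counting is not given, its reads could not be told apart from those of Dusp5. Dusp6 encodes a cytoplasmic phosphatase selective for ERK. Dusp6 was at 74.0, 72.0 and 65.8 CPM in KO libraries and at 49.0, 58.1 and 85.5 CPM in WT libraries. The KO libraries were close together, and the WT libraries spanned a range that took in all of them. Its log2 fold change was 0.18 with an interval of -0.24 to 0.59 (limma adjusted p = 0.411). Of both Dusp5 and Dusp6 the call changed with WT replicate 3. Without that library Dusp5 (log2 fold change 0.37, limma adjusted p = 0.0217) and Dusp6 (log2 fold change 0.40, limma adjusted p = 0.0112) passed as higher in the KO line. Over all alternatives the adjusted p lay between 0.0217 and 0.356 for Dusp5 and between 0.0112 and 0.993 for Dusp6.

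The promoter windows of Dusp5 and Dusp6 are shown because they hold matches to sites through which ERK signals are known to reach genes, the CArG box bound by serum response factor and the octamer bound by the repressor Capicua (Cic). Each window runs from 250 bases before to 50 bases after a RefSeq transcript start (GRCm38.p6), 5′ to 3′ on the strand of the gene, with every motif match in capitals. Motifs were searched on both strands: the ETS site CCGGAAGT, the Cic octamers TGAATGAA, TGAATGGA, TCAATGAA and TCAATGGA, the AP-1 site TGANTCA, the GC box GGGCGG, and the CArG box. The spellings do not overlap one another in these windows.
Dusp5, chr19:53528895-53529194, plus strand: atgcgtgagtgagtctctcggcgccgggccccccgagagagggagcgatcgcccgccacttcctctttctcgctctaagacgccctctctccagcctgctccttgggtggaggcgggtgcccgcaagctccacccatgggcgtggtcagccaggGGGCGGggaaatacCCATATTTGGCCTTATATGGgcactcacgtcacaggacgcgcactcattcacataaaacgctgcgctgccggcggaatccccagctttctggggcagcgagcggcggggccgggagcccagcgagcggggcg
Dusp6, chr10:99262981-99263280, plus strand: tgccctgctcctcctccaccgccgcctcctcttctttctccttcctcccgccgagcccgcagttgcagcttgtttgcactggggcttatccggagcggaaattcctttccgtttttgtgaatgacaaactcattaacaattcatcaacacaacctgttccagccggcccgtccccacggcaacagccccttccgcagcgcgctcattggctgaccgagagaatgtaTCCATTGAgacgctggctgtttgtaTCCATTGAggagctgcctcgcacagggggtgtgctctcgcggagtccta
Dusp5 had 2 CArG boxes side by side, CCATATTTGG starting 82 bases and CCTTATATGG starting 72 bases before the start, and a GC box further upstream. Dusp6 had 2 matches to the Cic octamer on the opposite strand, both reading TCAATGGA, starting 24 bases before the start and at base 2 of the transcript. A CArG box was found in 1.63% and a Cic octamer in 3.83% of 32851 promoter windows of the same length. These matches describe letters of the reference genome, and neither gene passed the test in the full set of libraries.

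Of the Sprouty genes, Spry2 and Spry4 were higher in the KO line, and Spry1, the most abundant of them, did not pass. Sprouty proteins bind adaptors such as GRB2 and the ubiquitin ligase CBL and hold back the activation of RAS and RAF by receptors. Spry1 was at 186, 209 and 189 CPM in KO libraries and at 187, 178 and 166 CPM in WT libraries. WT replicate 1 lay just above the lowest KO library, and otherwise the lines did not interleave. For Spry1 the log2 fold change was 0.14 with an interval of -0.05 to 0.32 (limma adjusted p = 0.162), the narrowest interval of the 4 genes that did not pass. Spry2 was at 21.5, 24.8 and 25.5 CPM in KO libraries and at 9.49, 12.3 and 9.84 CPM in WT libraries. Every KO library was above every WT library, with a log2 fold change of 1.19 (SE 0.13, limma adjusted p = 8.09e-05), or 2.28-fold. Spry4 was at 12.1, 13.2 and 12.0 CPM in KO libraries and at 2.11, 1.68 and 1.98 CPM in WT libraries. It had the largest fold change of the 10 genes and a small spread in both lines, with a log2 fold change of 2.68 (SE 0.15, limma adjusted p = 1.2e-06), or 6.42-fold. On the log2(CPM + 1) scale, which understates the change of low genes, its log2 fold change was 2.20. GENCODE M21 places 1 gene on the opposite strand within Spry1 and 2 within Spry4, whose reads could not be told apart from theirs, and none that overlaps Spry2.

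The Spry2 window (chromosome 14) is shown as that of a gene that was higher in the KO line and holds a Cic octamer.
Spry2, chr14:105896770-105897069, minus strand: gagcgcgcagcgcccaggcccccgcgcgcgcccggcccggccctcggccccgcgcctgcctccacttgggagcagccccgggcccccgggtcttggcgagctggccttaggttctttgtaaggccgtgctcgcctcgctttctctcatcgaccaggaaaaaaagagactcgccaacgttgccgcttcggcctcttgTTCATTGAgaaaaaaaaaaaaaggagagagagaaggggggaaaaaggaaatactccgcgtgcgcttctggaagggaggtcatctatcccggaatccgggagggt
Its match, in capitals, reads TCAATGAA on the opposite strand and starts 54 bases before the RefSeq start. No GC box, ETS site, AP-1 site or CArG box of these spellings was in the window. The Spry1 window held a GC box and no other motif searched.

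Spred1 and Spred2 encode membrane-bound proteins that bring neurofibromin, the RAS GTPase-activating protein encoded by Nf1, to RAS. Spred1 was the only one of the 10 genes called lower. Spred1 was at 74.2, 73.1 and 62.9 CPM in KO libraries and at 139, 175 and 209 CPM in WT libraries. The WT libraries were spread widely, and the lowest of them was still above all KO libraries. Spred1 thus had a log2 fold change of -1.30 (SE 0.14, limma adjusted p = 7.07e-05), so the WT level was 2.46-fold that of the KO line. Spred2 was at 40.4, 42.1 and 39.7 CPM in KO libraries and at 27.4, 37.7 and 39.9 CPM in WT libraries. WT replicate 1 was apart from the other 5 libraries, and WT replicate 3 lay among the KO libraries. The log2 fold change of Spred2 was 0.24 with an interval of -0.08 to 0.56 (limma adjusted p = 0.163), and leaving out 1 library at a time gave values from 0.07 without WT replicate 1 (limma adjusted p = 0.498) to 0.34 without WT replicate 3 (limma adjusted p = 0.0627). Nf1 was at 98.6 ± 13.6 CPM in KO cells and 97.2 ± 14.3 CPM in WT cells (log2 fold change 0.02, limma adjusted p = 0.898). The sign of that value was negative without KO replicate 2 and without WT replicate 1.

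The window of Spred1 (chromosome 2) is shown as that of the gene that was lower in the KO line. It follows a RefSeq start and lies wholly upstream of the GENCODE M21 gene, which starts at 117121374.
Spred1, chr2:117120821-117121120, plus strand: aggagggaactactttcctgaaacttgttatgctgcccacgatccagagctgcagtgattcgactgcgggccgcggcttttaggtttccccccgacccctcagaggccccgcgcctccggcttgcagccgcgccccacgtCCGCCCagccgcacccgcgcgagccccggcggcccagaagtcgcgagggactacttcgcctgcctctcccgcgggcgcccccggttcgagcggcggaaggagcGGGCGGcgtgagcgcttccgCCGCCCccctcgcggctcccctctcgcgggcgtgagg
The window had 72.3% G and C and 40 CpG dinucleotides, against medians of 52.7% and 7 over all windows. Its 3 GC boxes are in capitals, and a GC box was found in 35.7% of all windows. The ETS site (3.89% of all windows), the Cic octamers, the AP-1 site (7.81%) and the CArG box had no match in it.

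Etv4 and Etv5 were both higher in the KO line. Etv4 was at 28.6, 21.0 and 25.4 CPM in KO libraries and at 5.48, 9.65 and 12.0 CPM in WT libraries. The groups did not overlap, and WT replicate 1 was the lowest library by a wide margin. Its log2 fold change was 1.52 (SE 0.27, limma adjusted p = 0.00108), or 2.88-fold. Etv5 was at 16.6, 12.7 and 13.5 CPM in KO libraries and at 7.17, 9.55 and 11.0 CPM in WT libraries. Its groups were apart, with the highest WT library close below the lowest KO library. Its log2 fold change was 0.64 (SE 0.18, limma adjusted p = 0.0127), or 1.56-fold. Etv5 did not pass without KO replicate 1 (limma adjusted p = 0.055), with a range of 0.00629 to 0.055 over the alternatives. No GENCODE M21 gene overlaps Etv4 on chromosome 11 or Etv5 on chromosome 16.

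RefSeq gave 2 starts for Etv5, and the window of the upstream start is shown for comparison with the genes above.
Etv5, chr16:22439521-22439820, minus strand: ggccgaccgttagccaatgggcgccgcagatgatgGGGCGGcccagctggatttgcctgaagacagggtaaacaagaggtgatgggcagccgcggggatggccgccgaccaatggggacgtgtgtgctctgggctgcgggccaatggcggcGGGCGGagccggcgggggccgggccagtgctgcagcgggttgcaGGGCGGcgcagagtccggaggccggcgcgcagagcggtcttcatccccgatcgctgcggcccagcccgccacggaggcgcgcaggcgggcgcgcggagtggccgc
This window held 3 GC boxes and no other motif searched, and the window of the downstream start held none of the motifs. Windows were found for 7 of the 10 genes, 8 windows in all, and all 8 had more CpG dinucleotides (17 to 40) than the median window. Dusp4, Spry4 and Etv4, which had the largest rises of the 10 genes, had no window and were not searched. None of the 8 held the ETS site CCGGAAGT or the AP-1 site.

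Levels of different genes were compared per kilobase of exon, with overlapping exons of all GENCODE M21 transcripts merged. In the KO line the order by mean CPM per kb was Spry1 (67.0 ± 4.3), Dusp4 (27.6 ± 7.8), Dusp6 (22.5 ± 1.4), Dusp5 (15.8 ± 1.7), Spry2 (11.5 ± 1.0), Spred1 (10.3 ± 0.92), Spred2 (8.82 ± 0.27), Etv4 (8.06 ± 1.2), Etv5 (3.48 ± 0.49) and Spry4 (2.62 ± 0.15). Neighbours whose libraries overlapped in that order were Dusp4 with Dusp6, Spry2 with Spred1, and Spred2 with Etv4. In the WT line the order was Spry1 (60.9 ± 3.5), Spred1 (25.7 ± 5.2), Dusp6 (20.5 ± 6.1), Dusp5 (13.4 ± 2.1), Dusp4 (7.88 ± 1.1), Spred2 (7.58 ± 1.4), Spry2 (5.05 ± 0.74), Etv4 (2.92 ± 1.1), Etv5 (2.25 ± 0.47) and Spry4 (0.404 ± 0.046). There Spred1 overlapped with Dusp6, Dusp6 with Dusp5, Dusp4 with Spred2, and Etv4 with Etv5. Spry1 was first and Spry4 last in both lines, while Dusp4 was at rank 2 in the KO line and rank 5 in the WT line, and Spred1 at rank 6 in the KO line and rank 2 in the WT line.

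The make-up of each family, counted only over its members among these 10 genes, differed between the lines. Dusp4 made up 41.3% ± 6.4 of the summed per-kb level of Dusp4, Dusp5 and Dusp6 in the KO line and 19.3% ± 4.2 in the WT line, with totals of 55.0 to 72.5 CPM per kb in KO and 34.9 to 50.6 CPM per kb in WT libraries. Spry1 made up 82.6% ± 0.96 of the Sprouty level in the KO line and 91.8% ± 1.0 in the WT line. The share of Spry2 was 14.1% ± 1.0 in the KO line and 7.63% ± 1.1 in the WT line, and that of Spry4 was 3.23% ± 0.073 in the KO line and 0.611% ± 0.075 in the WT line. Spred1 made up 53.9% ± 1.9 of the summed level of Spred1 and Spred2 in the KO line and 77.2% ± 1.1 in the WT line. The total of Spred1 and Spred2 was 17.9 to 19.9 CPM per kb in KO and 26.5 to 39.5 CPM per kb in WT libraries. Etv4 made up 69.8% ± 1.4 of the pair with Etv5 in the KO line and 55.6% ± 4.7 in the WT line, with totals of 9.87 to 13.3 CPM per kb in KO and 3.51 to 6.55 CPM per kb in WT libraries. None of these shares overlapped between the lines (n = 3 libraries each), where single genes did not overlap in 73.5% of all genes tested. Each of these sums holds a gene whose libraries were already apart, so shares and totals rest on the same values and are not a further result. The Sprouty, DUSP and ETV totals were higher in every KO library than in any WT library, and the total of Spred1 and Spred2 was lower. These totals leave out the other DUSP genes measured. They also leave out Spred3, which was higher in the KO line (33.0 ± 4.7 against 17.1 ± 1.0 CPM).

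**Figure D3:**
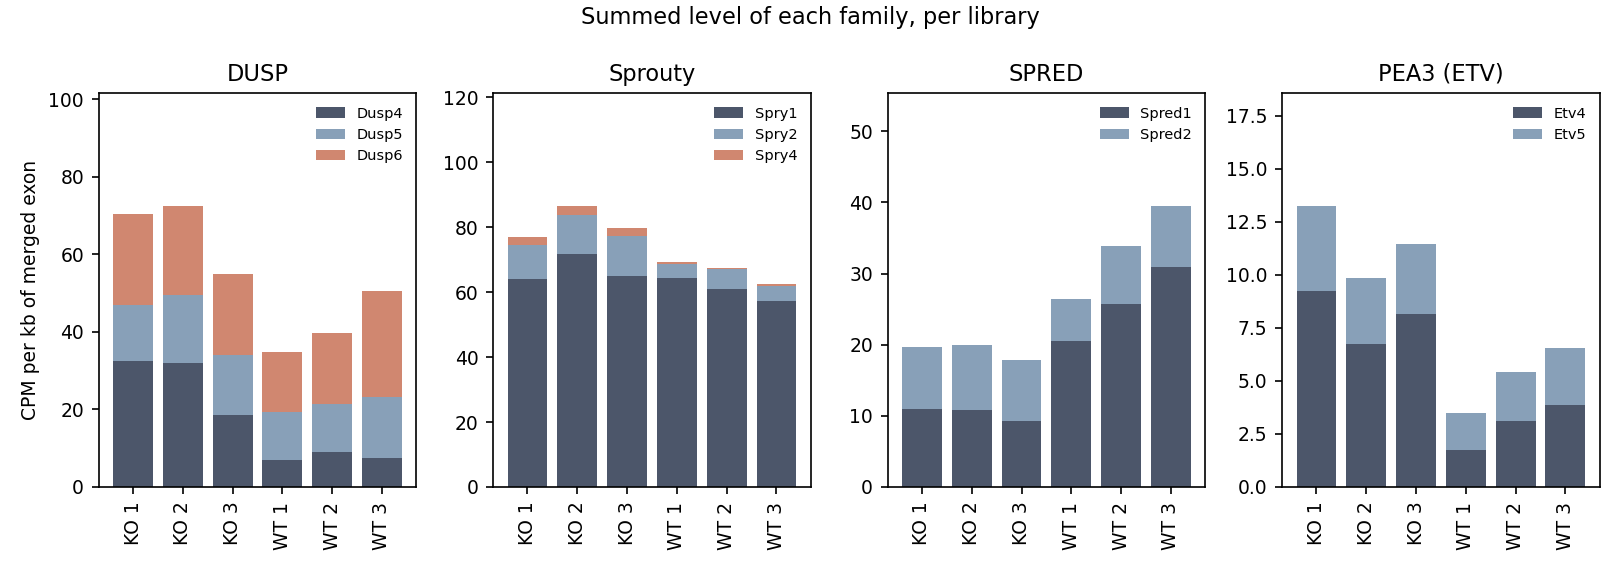
Level of each family per library, in CPM per kb of merged exon, stacked by gene, KO libraries left of WT libraries. Only members among the 10 genes are stacked, so Spred3 and the other DUSP genes are left out. The DUSP, Sprouty and ETV stacks are taller in the KO libraries and the SPRED stack is taller in the WT libraries, while Spry1 takes 82.6% (KO) and 91.8% (WT) of the Sprouty stack on average.

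The 10 genes also differed in how far replicates spread. Their median SD between replicates within a line was 0.22 on the log2 scale, against 0.15 over all genes tested, from 0.09 for Spry1 to 0.44 for Etv4. Within the WT line, replicate 1 was the lowest library in 7 of the 10 genes (Dusp4, Dusp6, Spry2, Spred1, Spred2, Etv4 and Etv5), as in 38.2% of all genes. WT replicate 3 was the highest in 6 of the 10 (Dusp5, Dusp6, Spred1, Spred2, Etv4 and Etv5), as in 34.2% of all genes. Within the KO line, replicate 1 was the highest in 5 of the 10, as in 28.3% of all genes, and replicate 3 the lowest in 5, as in 38.0% of all genes.

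Other genes of the same families were measured too. Of the 7 other MAP kinase phosphatases tested, 5 were higher and 2 did not pass (Dusp2 and Dusp16), so 71.4% were called, beside 68.1% of all genes, all of them higher, beside 34.3% of all genes. Their median log2 fold change was 1.16, the same with Dusp9 at its bound. Dusp1, the immediate early phosphatase for p38, JNK and ERK, was at 271 ± 33 CPM in KO cells and 73.7 ± 9.3 CPM in WT cells (log2 fold change 1.88, limma adjusted p = 2.19e-06). Dusp8, which acts on JNK and p38, was at 64.5 ± 5.2 against 23.3 ± 1.2 CPM. Dusp9, a cytoplasmic ERK phosphatase, had 425 reads in the KO line and 0 reads in all WT libraries, and was at least 146-fold higher against a floor of 3 reads over the WT group. Spred3 was higher, at 33.0 ± 4.7 CPM in KO cells and 17.1 ± 1.0 CPM in WT cells (log2 fold change 0.94). Il17rd, which encodes the FGF signalling inhibitor Sef, was lower, at 44.9 ± 3.6 against 122 ± 20 CPM (log2 fold change -1.43, limma adjusted p = 1.7e-05). Spry3 and Etv1 were not among the genes of the table.

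Most other ERK target genes were higher in the KO line: of 15 tested, 12 were higher, 2 were lower and Phlda1 did not pass, with a median log2 fold change of 0.92. Ier3, an early response gene, was at 244 ± 16 CPM in KO cells and 29.4 ± 2.8 CPM in WT cells (log2 fold change 3.06, SE 0.09). The ephrin receptor Epha4 was at 236 ± 51 against 63.1 ± 12 CPM. Cyclin D1 (Ccnd1), which drives entry into the cell cycle, was at 755 ± 161 against 234 ± 102 CPM (log2 fold change 1.75, limma adjusted p = 0.000641). The transcription factor genes Junb, Myc, Maff and Fosl1, named here after their values were seen, were among the 12 higher, though the libraries of the lines overlapped for Fosl1 (limma adjusted p = 0.0449). Egr1 and Fos, which encode immediate early transcription factors, were the 2 lower genes, Egr1 at 82.0 ± 28 CPM in KO cells and 396 ± 42 CPM in WT cells (log2 fold change -2.33, limma adjusted p = 3.25e-05), and Fos at 10.02 ± 2.1 against 25.9 ± 3.3 CPM (log2 fold change -1.38). The 12 of 15 stood at 80.0%, beside 34.3% of all genes tested, and no test of the list was made. The list was chosen with earlier results of these data known, so its share may reflect that choice.

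**Figure D4:**
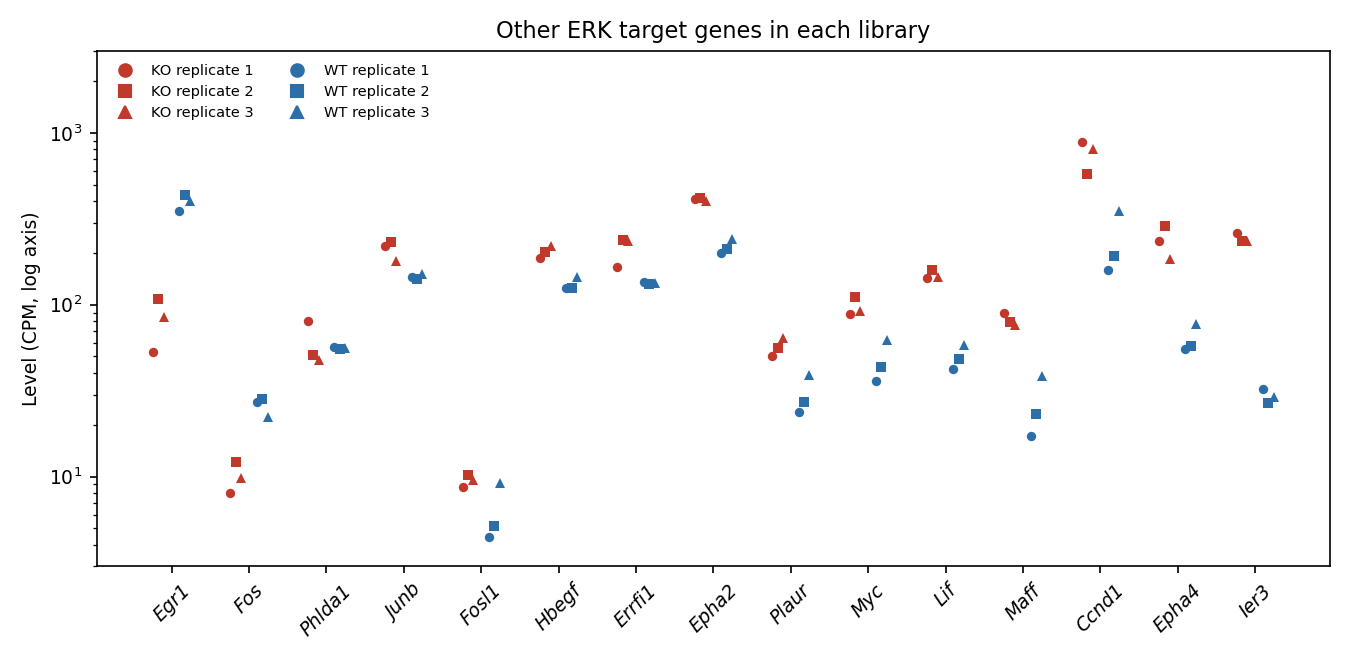
Level in CPM (log axis) of 15 other ERK target genes in each KO library (red) and WT library (blue), ordered by fold change from lower (left) to higher (right) in the KO line. Egr1 and Fos are lower in all KO libraries, and Ccnd1, Epha4 and Ier3 at the right are higher in all of them.

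The cascade itself showed small differences in both directions. Of 17 genes from RAS to ERK, 5 were higher, 5 were lower and 7 did not pass, and the median log2 fold change was -0.13. The 10 called were 58.8% of the list, beside 68.1% of all genes, and none of them reached 2-fold, beside 27.9% of all genes. The GTPase gene Rras2 was at 381 ± 49 CPM in KO cells and 279 ± 38 CPM in WT cells (log2 fold change 0.45) and the MEK gene Map2k2 at 127 ± 4.0 against 98.0 ± 2.4 CPM (log2 fold change 0.37). The scaffold gene Ksr1 was lower, at 9.38 ± 0.21 against 18.3 ± 2.4 CPM (log2 fold change -0.95), as was Lamtor3, which encodes a partner of MEK, at 26.3 ± 2.9 against 40.9 ± 5.5 CPM (log2 fold change -0.63). Mapk3, an ERK gene, was lower, at 98.9 ± 9.5 against 152 ± 22 CPM (log2 fold change -0.61, limma adjusted p = 0.00191).

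Among 11 tested adaptors and RAS exchange factors, 4 were higher and 4 lower, so 72.7% were called, near the 68.1% of all genes. Gab2 was at 37.1 ± 4.7 CPM in KO cells and 18.1 ± 1.3 CPM in WT cells, Rapgef1 at 205 ± 23 against 138 ± 1.4 CPM, and Grb2, the adaptor that Sprouty proteins bind, at 130 ± 1.6 against 95.6 ± 3.8 CPM. Rasgrp3 was at 0.986 ± 0.47 against 51.9 ± 17 CPM, Shc1 at 71.9 ± 3.1 against 227 ± 16 CPM and Gab1 at 54.0 ± 7.7 against 97.4 ± 6.1 CPM. Of 9 RAS GTPase-activating proteins, 2 were higher (Rasal2 and Dab2ip) and 3 lower, with Rasa4 and Rasa3 among them (55.6% called). Rasa3 was at 10.6 ± 1.4 CPM in KO cells and 54.2 ± 8.2 CPM in WT cells. Of 7 partners of Sprouty and SPRED proteins, Tesk1 and Grb2 were higher and Cav1 and Cbl lower (57.1% called). Cav1, the caveolar coat gene, was at 62.2 ± 13 against 446 ± 38 CPM (log2 fold change -2.86), and Cbl at 54.8 ± 7.1 against 101 ± 4.9 CPM (log2 fold change -0.88, limma adjusted p = 0.00011).

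Of 15 regulators and relatives of Etv4 and Etv5, 7 were higher, 3 were lower and 5 did not pass, so 66.7% were called, near the 68.1% of all genes. Cic, whose product represses ETV, Sprouty and DUSP genes until ERK relieves it, was at 218 ± 19 CPM in KO cells and 232 ± 13 CPM in WT cells (log2 fold change -0.09, limma adjusted p = 0.381), and Cop1, which encodes a ubiquitin ligase for ETV proteins, was at 36.1 ± 2.1 against 33.1 ± 1.6 CPM (log2 fold change 0.12, limma adjusted p = 0.23). Atxn1, whose product binds Cic, was lower at 34.1 ± 4.5 against 90.6 ± 3.8 CPM (log2 fold change -1.42), and the ETS genes Elk4 (log2 fold change -0.65) and Erf (log2 fold change -0.34) were lower too. The epithelial ETS factor Ehf was at 52.8 ± 13 CPM in KO cells and 0.534 ± 0.41 CPM in WT cells, Elk3 at 96.3 ± 2.7 against 46.6 ± 5.0 CPM and Elf3 at 21.8 ± 1.1 against 13.9 ± 4.1 CPM. Erf did not pass without WT replicate 2 (limma adjusted p = 0.0614), Elf3 without KO replicate 3 (limma adjusted p = 0.0564) and Rras2 without KO replicate 1 (limma adjusted p = 0.0544).

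Receptor tyrosine kinases stand upstream of RAS. Of 13 tested, 3 were higher (Epha1, Erbb3 and Egfr) and 6 lower, so 69.2% were called, near the 68.1% of all genes. Erbb3 was at 81.1 ± 3.3 CPM in KO cells and 3.15 ± 0.46 CPM in WT cells, Egfr at 567 ± 77 against 292 ± 36 CPM and Epha1 at 77.2 ± 4.7 against 0.224 ± 0.026 CPM. Pdgfrb was at 0.191 ± 0.071 against 114 ± 24 CPM, Fgfr3 at 0.447 ± 0.087 against 9.53 ± 1.6 CPM and Axl at 253 ± 33 against 860 ± 149 CPM.

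**Figure D5:**
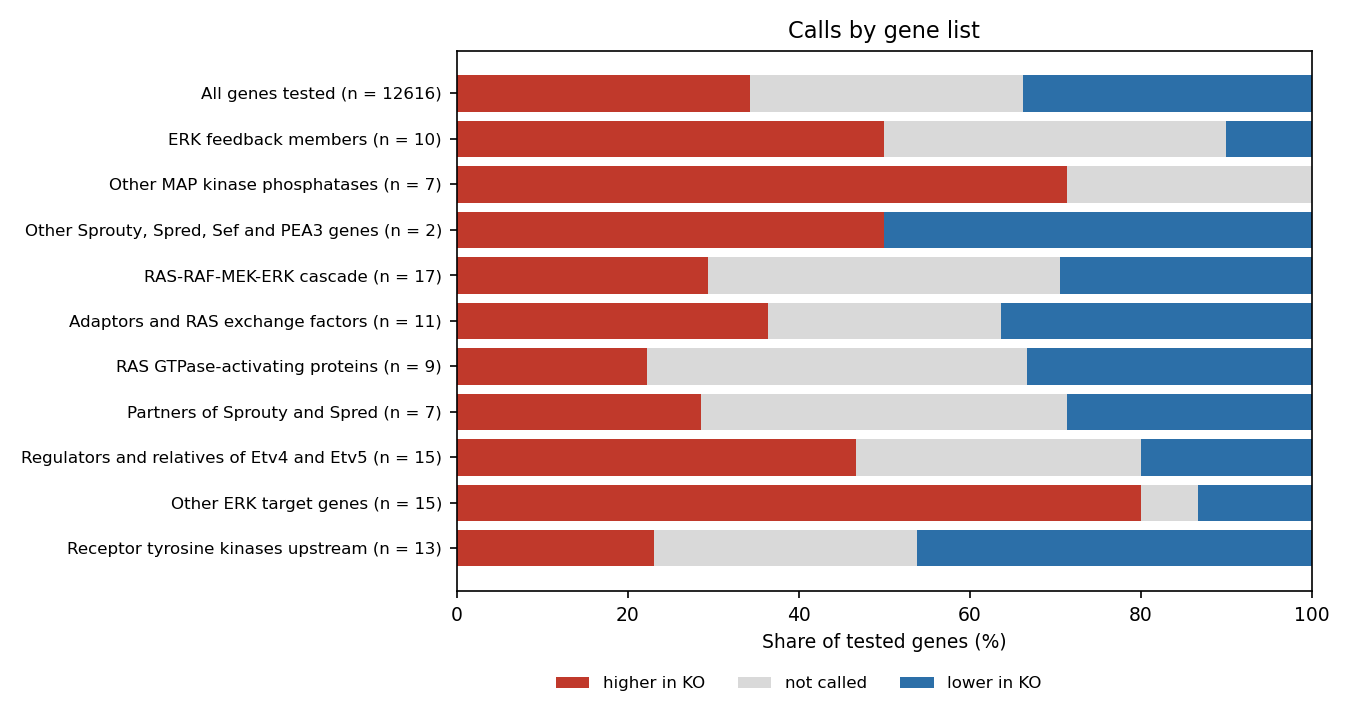
Share of tested genes in each list that was higher in the KO line (red), not called (grey) or lower (blue), with all genes tested on top. All genes show 34.3% higher and 33.8% lower, the 10 ERK feedback genes 50% and 10%, and the other ERK target genes 80.0% and 13.3%. The 10 genes and the lists were chosen with earlier results of these data known.

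The genes with a pattern most like that of a member were found from the root mean square (RMS) difference of log2 CPM over the 6 libraries, each gene centred on its own mean. For Spry4 these were Map3k9 (RMS 0.08, at 59.7 ± 7.7 CPM in KO cells and 8.96 ± 1.1 CPM in WT cells), Patj (RMS 0.08) and Shtn1 (RMS 0.08), against a median RMS of 1.37 over all genes tested. For Spred1 they were Mtcl1 (RMS 0.04, at 37.5 ± 3.4 against 97.3 ± 20 CPM), Helz2 (RMS 0.06) and Tor1aip1 (RMS 0.07), against a median of 0.75. With 2 groups of 3 libraries, likeness of this kind rests mostly on the difference between the lines.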

How the data were processed

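RNA from an RNeasy extraction was made into stranded mRNA libraries (Illumina), per the labels' protocols. Trimmomatic 0.39, STAR 2.7.3a, Subread 1.6.4 with featureCounts, edgeR and the build GRCm38 are named, without their settings, per the submitters' processing notes. Annotation, strand setting and filter: not given in the sources used here. The authors deposited log2 CPM values, 1 column per library. With the shared lowest value (-5.26 log2 CPM) taken off after conversion from log2, 100% of the values came out as whole numbers of reads within 0.001, and the library scaling factors were 0.983 to 1.02. The prior averaged 1 read.

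The deposited log2 values were fitted with limma 3.58.1 (R 4.3.3, eBayes with trend, KO minus WT) for genes above 0 log2 CPM in at least 3 libraries, and 187 genes were not tested. On reads simulated for this comparison with a dispersion of 0.01, over 12052 genes, the fit called 100% of 100 genes changed 2-fold, 100% of 98 changed 4-fold and 11 of 11854 unchanged genes. Every simulated gene had the same dispersion and few were changed, unlike these data, so the recovery does not measure power for the 10 genes. Exact permutation tests used scipy 1.17.1. Genes were named by a rule: all members, up to 3 called genes with the largest rise and up to 3 with the largest fall in each list, and stated partners of the members. Some genes that this rule takes are not reported here. The members, lists and motifs were chosen with earlier results of these data, and for the motifs the windows themselves, known. Floors of 3 reads cover counting error only. Symbols of all 10 members matched GENCODE M21 (GRCm38), which may differ from the annotation the authors counted on. Promoter sequences are from RefSeq (GRCm38.p6). Alternatives were leaving out each library, 2 other filters, another pseudocount, 2 other scalings, no trend, voom on whole reads and a replicate block.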

Additional observations from a re-analysis of the deposited data

How the results depend on the processing

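Of 140 values for the 10 genes under 14 alternatives, 137 kept their direction and their side of the threshold, 1 lost the call (Etv5 without KO replicate 1) and 2 gained it (Dusp5 and Dusp6 without WT replicate 3). None changed direction, including under both other scalings, which moved the median of all genes by less than 0.1 on the log2 scale. The number of the 10 genes called lay between 5 and 8 when a library was left out. Of 657 values for 47 other named genes, 652 kept direction and side and 3 lost the call. The log2 fold change of Nf1, which did not pass, was -0.08 without KO replicate 2 and -0.10 without WT replicate 1, with a range of -0.10 to 0.12 when a library was left out. The cause was not tested. Genes called over the whole table numbered 7410 to 8743 over the alternatives, and all counts stayed within 1.5 times their main value. Replicate numbers are shared by the lines. Deviations of same-numbered libraries correlated at 0.101, 0.0811 and -0.095, and not every library correlated best with its own number. Such weak correlations from 3 libraries a line cannot show whether the numbers pair the samples. With the number as a replicate block, 8395 genes were called in place of 8590, and 6 of the 10. With 3 libraries a line, small differences such as those of Spry1 and Spred2 were not resolved.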
